A study of Homo sapiens with 47 samples.

Results

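The response of the prostate cancer cell line 22Rv1 to 0.5 and 0.2% O2 was taken from 7 of the 47 small RNA libraries of the series. Members were chosen by a rule on cell line and O2 level alone that used no measured value, though earlier results of these data were known. The hypoxia groups were 22Rv1 cells held for 24 h at 0.5% O2 (2 libraries) or 0.2% O2 (2 libraries) in a hypoxia chamber. The controls were 22Rv1 cells in normoxia (95% air), and each level had its own, with 2 libraries for the 0.5% level and 1 used here for the 0.2% level. Cells of both kinds grew in RPMI-1640 with 10% fetal bovine serum, antibiotics and glutamine. Per the labels, 22Rv1 descends from a subline of the CWR22R xenograft, and the line was not genetically altered as far as the labels say. It is 1 cell line, so the values describe that line and not prostate tumours at large. The other libraries used for comparison were PC-3, another human prostate cancer line, at 0.5 and 0.2% O2 (4 hypoxia, 4 normoxia), and 22Rv1 at 2 and 1% O2 (4 and 4) or at 0% O2 (2 and 2).

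A microRNA (miRNA) is a short RNA cut from a hairpin precursor, and either arm of the hairpin (5p or 3p) can be loaded into an Argonaute protein. The loaded arm pairs with messenger RNAs mainly through its seed, the bases 2 to 8, and lowers their translation or stability. When O2 is scarce, the hypoxia-inducible factors (HIF) are no longer degraded and switch on genes of glycolysis, angiogenesis and survival. miR-210 is the miRNA known best as a direct HIF target, and it lowers components of mitochondrial respiration such as the iron-sulfur cluster scaffold ISCU.

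The sequences shown first are the mature forms of miRNAs that were higher in hypoxia, with the opposite arm of the same hairpin or a relative of the same seed beside them. They come from RefSeq (GRCh38.p14), run 5′ to 3′, and carry the seed in capitals.
miR-210-3p: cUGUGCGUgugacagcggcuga
miR-210-5p: aGCCCCUGcccaccgcacacug
miR-190b (RefSeq miR-190b-5p): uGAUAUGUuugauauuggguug
miR-190a-5p: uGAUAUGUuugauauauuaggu
miR-27a-5p: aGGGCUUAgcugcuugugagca
miR-27a-3p: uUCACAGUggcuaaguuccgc
miR-338-5p: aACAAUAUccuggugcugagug
miR-338-3p: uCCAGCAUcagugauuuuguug
miR-190b and miR-190a-5p have the same seed, GAUAUGU, and come from different genes. The arms of miR-210, miR-27a and miR-338 have different seeds, so a shift between arms is also a shift between seeds.

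The hairpin of miR-210 lies at chr11:568089-568198 in an intron of the long noncoding RNA gene MIR210HG. That of miR-190b lies at chr1:154193665-154193743 in an intron of TPM3, which encodes a tropomyosin. The miR-338 hairpin is at chr17:81125883-81125949 in an intron of the kinase gene AATK. The miR-27a hairpin is at chr19:13836440-13836517, in an exon of the noncoding transcript AC020916.1, which also carries miR-23a. The hairpin of miR-190a lies at chr15:62823957-62824041 in an intron of TLN2. All but the last of these hairpins are on the minus strand, and host genes on the same strand are from GENCODE 29 (GRCh38).

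The promoter of MIR210HG is shown because both arms of miR-210 rose. It spans chr11:568408-568707 (GRCh38.p14, minus strand), from 250 bases before to 50 bases after the annotated start, with the match to the core of a hypoxia response element, ACGTG, in capitals.
MIR210HG promoter: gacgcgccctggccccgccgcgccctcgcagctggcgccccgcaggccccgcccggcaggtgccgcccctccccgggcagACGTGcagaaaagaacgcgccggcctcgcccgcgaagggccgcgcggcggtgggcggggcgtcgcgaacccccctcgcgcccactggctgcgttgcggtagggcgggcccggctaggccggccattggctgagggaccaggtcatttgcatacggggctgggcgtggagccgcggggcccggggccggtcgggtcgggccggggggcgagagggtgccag
Both strands were searched for ACGTG and for GCGTG, the other form of that core. The only ACGTG began 170 bases before the start and the only GCGTG 9 bases before it. Of 35116 promoters of this length, 21.4% held ACGTG, 36.5% held GCGTG and 48.4% held at least 1 of them, so such matches are common and describe only the letters of the window.

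The 7 libraries held 2013469 to 3181344 counts and 837 to 939 of the 1006 deposited entries. Of the counts of a library, 37.2 to 46.5% fell on the 5 miRNAs with the highest mean level over the 7. Levels are given as CPM (a miRNA's count relative to the library total), scaled with TMM (trimmed mean of M values), which sets a common scale for the bulk of the miRNAs. Markers of luminal or androgen receptor-positive prostate cells were abundant, with miR-375 at 9085 to 22732, miR-148a-3p at 30819 to 79319, miR-141-3p at 7907 to 21063 and miR-200c-3p at 21159.8 to 31434 CPM. The most abundant miRNA was miR-191-5p, followed by let-7a-5p (63336 to 113714 CPM over the 7 libraries), miR-182-5p (50534 to 114630.1 CPM), miR-148a-3p and miR-22-3p (35056 to 49315 CPM). Markers of PC-3-like cells were low: miR-221-3p was at 13.5 to 21.8 and miR-31-5p at 11.5 to 25.2 CPM, against 12737 to 16416 and 7798 to 11381 CPM in PC-3 (scaled with both lines together). The smooth muscle markers miR-145-5p, miR-133a-3p and miR-1-3p stayed at 5.21 CPM or below, but miR-143-3p reached 585 CPM in hypoxia 0.5% replicate 1 against 113 to 158 CPM elsewhere. A pair of hypoxia libraries stood apart. On the first principal component (53.8% of the variance), hypoxia 0.2% replicate 2 lay on the side of the normoxia libraries, and hypoxia 0.5% replicate 1 lay farthest from them. Their TMM factors were also the highest, 1.26, and the lowest, 0.756, of the 7. On the second component (20.2% of the variance), the normoxia libraries lay at 2.08 to 3.10 and the hypoxia libraries at -5.66 to 0.43. There hypoxia 0.2% replicate 2 lay farthest from the normoxia libraries. The labels do not say whether replicates were separate cultures, so p-values measure only how far these samples spread, and that spread may be technical.

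In 22Rv1, 6 miRNAs rose in hypoxia and none fell by the test. The 6 were both arms of miR-210, miR-190b, miR-27a-5p, miR-30d-5p and miR-338-5p, and 5 of them rose between 1.73-fold (miR-30d-5p) and 3.84-fold (miR-210-5p). The other, miR-338-5p, reached the minimum level for the test only in the hypoxia libraries, so it had to differ once it was tested, and with a minimum of 20 CPM the count was 5. In each of them every hypoxia library lay above every normoxia library. The comparison asked which miRNAs change at these O2 levels in 22Rv1, with the O2 level as a block (4 hypoxia against 3 normoxia libraries). The threshold was an adjusted p under 0.05 (Benjamini-Hochberg) in edgeR's quasi-likelihood test over all 489 miRNAs tested. The calls made up 1.23% of these miRNAs in the direction of a rise and 0% in the direction of a fall. Without adjustment, 44 miRNAs that were higher and 29 that were lower had a p under 0.05, and DESeq2 called 12 higher and 7 lower. The libraries hold bulk RNA, so fewer cells with a miRNA and less of it per cell cannot be told apart.

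miR-210-3p, the more abundant arm of miR-210, had the smallest adjusted p together with its partner arm. It was at 1586 and 1494 CPM in the 0.5% controls and 1406 CPM in the 0.2% control. In hypoxia it was at 2655 and 3077 CPM at 0.5% O2 and 3046 and 3289 CPM at 0.2% O2. The 4 hypoxia libraries were close to each other and all above the controls, with means of 3017 ± 264 (SD, n = 4) and 1495 ± 89.8 CPM (SD, n = 3). The rise was 2.01-fold (log2 1.01, SE 0.14, edgeR adjusted p = 0.00938).

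miR-210-5p, the less abundant arm, rose further. Its level was 101 and 128 CPM in the 0.5% controls and 87.8 CPM in the 0.2% control. It reached 561 and 323 CPM at 0.5% O2 and 406 and 264 CPM at 0.2% O2. The lowest hypoxia library was hypoxia 0.2% replicate 2, still above the highest control. The rise was 3.84-fold (log2 1.94, SE 0.24, edgeR adjusted p = 0.00938).

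miR-190b, which shares the seed printed above with miR-190a-5p, rose 3.06-fold. Normoxia libraries had 30.4 and 31.4 CPM in the 0.5% controls and 21.1 CPM in the 0.2% control. Hypoxia libraries had 74.2 and 91.1 CPM at 0.5% O2 and 105 and 57.9 CPM at 0.2% O2. The groups did not overlap, and log2 was 1.62 (SE 0.25, edgeR adjusted p = 0.0207). Its relative miR-190a-5p lay on the other side: 21.4 to 26.5 CPM in the 3 normoxia libraries and 14.7 to 19.5 CPM in the 4 hypoxia libraries, without overlap, at log2 -0.46 (SE 0.20), which did not pass the test (edgeR adjusted p = 0.333). RefSeq lists miR-190b as miR-190b-5p, and the deposited entry was matched to it by its bare name.

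miR-30d-5p, one of the most abundant miRNAs of these cells, rose 1.73-fold. It was at 25029.5 and 23123 CPM in the 0.5% controls and 23308 CPM in the 0.2% control. The hypoxia libraries held 42987 and 41715 CPM at 0.5% O2 and 42026 and 36995 CPM at 0.2% O2. The separation was wide against the spread within groups (log2 0.79, SE 0.14, edgeR adjusted p = 0.0395). In absolute terms it was the largest gain among the 6, from 23820.3 ± 1051 (SD, n = 3) to 40931 ± 2679 CPM (SD, n = 4). Its other arm, miR-30d-3p, was at 147 to 165 CPM in normoxia and 207 to 270.1 CPM in hypoxia and did not pass (log2 0.68, SE 0.15, edgeR adjusted p = 0.0734).

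miR-27a-5p is the less abundant arm of a hairpin that lies in 1 cluster with miR-23a and miR-24-2. It was at 29.4 and 25.4 CPM in the 0.5% controls and 26.5 CPM in the 0.2% control. Hypoxia libraries held 88.6 and 69.8 CPM at 0.5% O2 and 88.4 and 40.9 CPM at 0.2% O2. All 4 were above the controls, hypoxia 0.2% replicate 2 by the smallest margin, and the 2.69-fold rise was just inside the threshold (log2 1.43, SE 0.28, edgeR adjusted p = 0.0499). The abundant arm miR-27a-3p, which carries most of the output of this hairpin, had overlapping groups (1494 to 1711 and 1593 to 2137 CPM, log2 0.28, edgeR adjusted p = 0.387).

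miR-338-5p had the largest fold change of the 6 and the lowest level. Its normoxia values were 3.27 and 3.32 CPM in the 0.5% controls and 3.40 CPM in the 0.2% control, which is 10 or 11 reads a library. Its hypoxia values were 24.1 and 25.1 CPM at 0.5% O2 and 66.6 and 14.0 CPM at 0.2% O2. The 4 hypoxia libraries were spread widely, with hypoxia 0.2% replicate 1 highest and replicate 2 of that level lowest. At log2 3.13 (SE 0.58, edgeR adjusted p = 0.0419), the rise was 8.76-fold. It reached the minimum of 5 CPM in 0 of 3 normoxia and 4 of 4 hypoxia libraries, so it entered the test only through the hypoxia libraries. The opposite arm, miR-338-3p, had overlapping groups (33.4 to 36.4 CPM in normoxia, 22.0 to 46.4 CPM in hypoxia, log2 -0.10, edgeR adjusted p = 0.866).

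**Figure D1:**
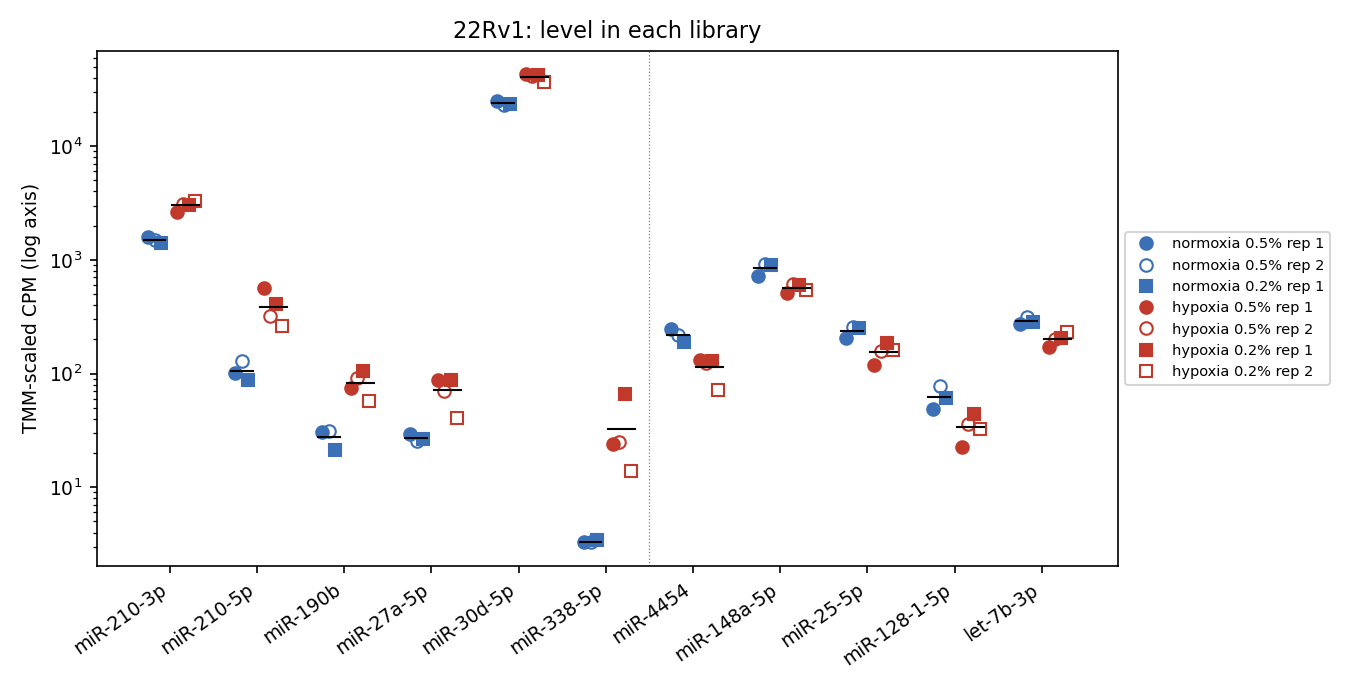
TMM-scaled CPM (log axis) of the 6 miRNAs that rose (left of the dotted line) and of 5 miRNAs with lower values in hypoxia that did not pass the test (right), 1 point per library and a bar at each group mean. For miR-210-3p the controls sit at 1406 to 1586 CPM and the hypoxia libraries at 2655 to 3289 CPM, and none of the 11 miRNAs has overlapping groups.

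Just outside the threshold, 7 more miRNAs had higher values at an adjusted p under 0.10, and 5 had lower values. miR-99a-5p, a miRNA known to target MTOR, was at 40.2 to 49.1 CPM in normoxia and 66.6 to 98.3 CPM in hypoxia (log2 0.81, SE 0.17, edgeR adjusted p = 0.0698). miR-874-3p was at 10.3 ± 1.05 CPM in normoxia (SD, n = 3) and 24.4 ± 7.72 CPM in hypoxia (SD, n = 4) (log2 1.27, edgeR adjusted p = 0.0769). The values of miR-30b-3p, cut from the hairpin next to miR-30d, were 38.1 to 43.2 and 56.0 to 83.6 CPM (log2 0.74, edgeR adjusted p = 0.0886). None of these groups overlapped, but the differences did not pass.

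On the lower side no miRNA passed, and the 5 with the smallest p among those of at least 20 CPM are given as values. miR-148a-5p, the minor arm of a hairpin abundant in 22Rv1, was at 725 and 924 CPM in the 0.5% controls and 907 CPM in the 0.2% control. In hypoxia it was at 509.9 and 615 CPM at 0.5% O2 and 606 and 545 CPM at 0.2% O2 (log2 -0.59, SE 0.14, edgeR adjusted p = 0.0848). The groups did not overlap, whereas those of the major arm miR-148a-3p did (log2 0.062, edgeR adjusted p = 0.925). miR-25-5p, the minor arm of a hairpin in an intron of the replication helicase gene MCM7, was at 207 to 258 and 119 to 184 CPM (log2 -0.65, edgeR adjusted p = 0.0886). Its major arm miR-25-3p had log2 0.054 (edgeR adjusted p = 0.914). let-7b-3p had 274 to 313 and 171 to 234 CPM (log2 -0.54, edgeR adjusted p = 0.122), and its major arm let-7b-5p had overlapping groups with log2 -0.0017. miR-128-1-5p had 49.1 to 77.6 and 22.8 to 44.0 CPM (log2 -0.92, edgeR adjusted p = 0.122), while miR-128-3p, the major arm of the 2 miR-128 hairpins, lay higher in hypoxia (389 to 421 and 425 to 764 CPM, log2 0.53, edgeR adjusted p = 0.289). miR-4454, an entry that resembles a transfer RNA fragment, was at 191 to 248 and 71.8 to 133 CPM (log2 -0.89, edgeR adjusted p = 0.0734). Of these 5, 4 are minor arms, and the major arm had overlapping groups or higher values in hypoxia. This count does not show that lower values are a trait of minor arms. Less abundant arms were also among the called rises, for example that of miR-338. Of 119 hairpins with both arms tested, 67 had the more positive effect in the more abundant arm. The median log2 was -0.055 for the less abundant arms and 0.054 for the others.

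Counting miRNAs whose 2 groups did not overlap at all, 47 (9.61%) were higher and 44 (9%) lower among the 489, so non-overlap alone was common in this comparison. These counts are by TMM, and they depend on the scaling: 14 were higher and 46 lower by library size alone, and 43 and 48 by the authors' factors. The median log2 change over all tested was 0.0023. With scaling by library size alone that median moved to -0.21. The 6 miRNAs stayed without overlap under that scaling and under the authors' factors, but by library size alone only miR-210-5p passed (edgeR adjusted p = 0.0244, against 0.0705 to 0.233 for the other 5).

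**Figure D2:**
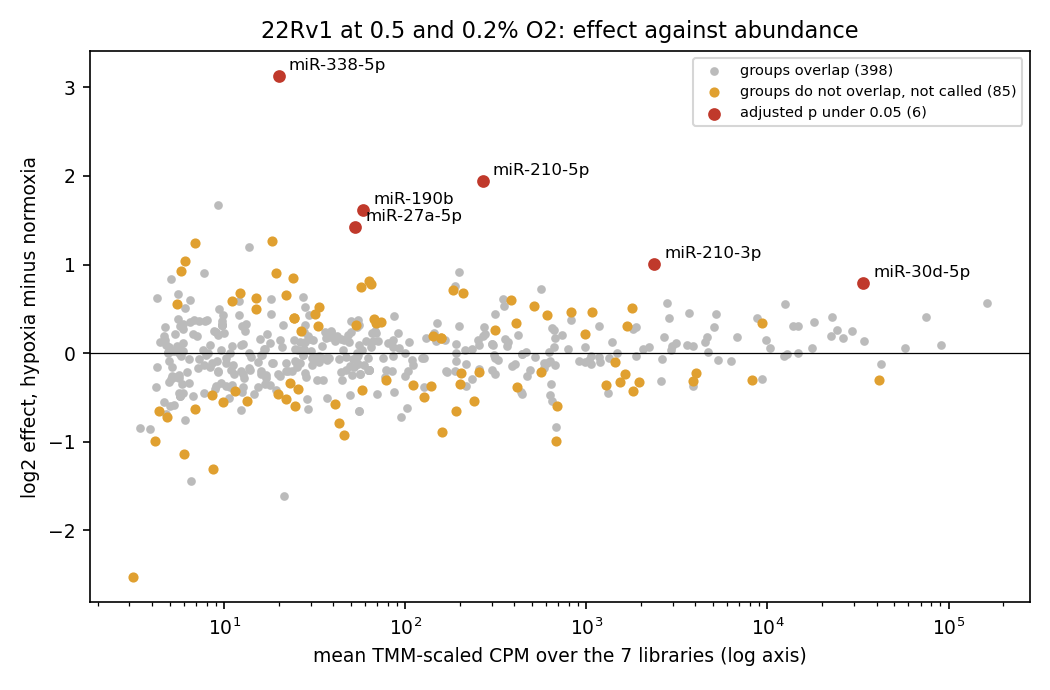
Log2 effect (hypoxia minus normoxia) against the mean TMM-scaled CPM over the 7 libraries (log axis) for the 489 miRNAs tested. The 6 called miRNAs are red, 85 others without overlap between groups are orange and 398 with overlap are grey; all red points are above 0 and they reach from miR-338-5p at low to miR-30d-5p at high abundance.

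The number of calls hung on single libraries. Without hypoxia 0.2% replicate 2, 51 of 470 miRNAs were called, 35 higher (7.45%) and 16 lower (3.4%), and the 6 were among them. The omission of this library was singled out after seeing the data and gave the most calls of the 7 single omissions. It is repeated below for the lists and for other comparisons. Without either 0.5% normoxia library there were 0 calls, without normoxia 0.2% replicate 1 or hypoxia 0.5% replicate 2 there was 1, without hypoxia 0.5% replicate 1 there were 4 and without hypoxia 0.2% replicate 1 there were 5. Without both libraries that stood apart, an omission chosen after seeing the data, there were 83 (54 higher, 29 lower). In the fit with 51 calls, miR-99a-5p (log2 0.82, edgeR adjusted p = 0.0222), miR-152-3p (0.86, 0.00612), miR-19a-3p (0.70, 0.0245) and miR-23a-3p (0.53, 0.0218) were called higher. The most abundant miRNA, miR-191-5p, was also called higher there (log2 0.75, edgeR adjusted p = 0.0311). In the 7-library fit its hypoxia values ran from 101412 to 272541 CPM, with hypoxia 0.2% replicate 2 lowest and below all 3 controls (121866 to 132539 CPM). On the lower side, miR-4454 (log2 -0.76, edgeR adjusted p = 0.00943), let-7b-3p (-0.59, 0.0311), miR-148a-5p (-0.56, 0.0403) and miR-25-5p (-0.63, 0.0436) passed.

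The miRNA lists were described by their counts and medians, to be read against 1.23% called and 9.61 and 9% without overlap over all miRNAs (all by TMM). The lists were chosen with earlier results of these data known, and both arms of a hairpin count as members. Their shares beside those of all miRNAs are therefore descriptions, and no list was tested as a set. Taken as plain ratios of group means (plus 0.5 CPM), 15 of the 22 list medians were above 0 by TMM, and 7 of those 15 were below 0 by library size alone, the miR-30, miR-200 and luminal lists among them (1, the p53-regulated list, by the authors' factors). No median below 0 turned. For the neuroendocrine-linked list the plain ratio (0.032) and the fitted values (median -0.050) already differed in sign by TMM. Of 41 tested members of the list of miRNAs that the literature reports as hypoxia-induced, 3 rose (both arms of miR-210 and miR-27a-5p) and 38 did not pass, with a median log2 of 0.18. In all, 8 members were higher and 3 lower without overlap. Without hypoxia 0.2% replicate 2 the calls in this list were 8 of 40, all higher, where 7.45% of all miRNAs were called higher. Of 15 members of the list reported to target HIF1A, the mRNA of the HIF-1 alpha subunit, 0 passed, 1 was higher and 3 were lower without overlap, and the median was -0.19. Without that library 1 of the 15 was called lower.

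Families linked to proliferation lay below 0 on the median by all 3 scalings, and the 7-library fit called no member. In the miR-17 to miR-92a-1 cluster with its paralogues, which includes targets of MYC, 0 of 23 passed, 2 were higher and 7 lower without overlap, and the median log2 was -0.20. miR-20a-5p was at 2068 to 2319 CPM in normoxia and 1608 to 1931 CPM in hypoxia (log2 -0.33, edgeR adjusted p = 0.289). miR-19a-3p, from the same primary transcript, was at 238 to 321 and 386 to 576 CPM (log2 0.61, edgeR adjusted p = 0.177), and miR-19b-3p at 754 to 943 and 1005 to 1564 CPM (log2 0.47, edgeR adjusted p = 0.271). In the miR-15 and miR-16 family, which restrains cyclins and BCL2, 0 of 12 passed, 0 of 12 had a positive value, 4 were lower without overlap, and the median was -0.25. miR-15a-5p had 725 to 769 and 391 to 735 CPM, miR-195-5p 1427 to 1623 and 826 to 1448 CPM, and miR-195-3p 149 to 158 and 85.8 to 119 CPM, the last without overlap. The absence of calls rested on hypoxia 0.2% replicate 2: without it, the calls in the miR-17 list were 2 rises and 3 falls among 23, and the miR-15 and miR-16 family had 1 fall among 11.

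In the miR-23, miR-27 and miR-24 clusters, 1 of 10 rose (miR-27a-5p), 3 were higher and 0 lower without overlap, and the median was 0.19. miR-23a-3p, known to lower glutaminase, was at 639 to 738 and 807 to 985 CPM (log2 0.46, edgeR adjusted p = 0.166), and miR-23a-5p at 24.8 to 28.2 and 31.7 to 48.4 CPM (log2 0.52, edgeR adjusted p = 0.289). In the miR-30 family 1 of 10 rose (miR-30d-5p), 3 were higher and 2 lower without overlap, and the median was 0.16. Its members did not lie on 1 side. miR-30a-5p had 4333 to 4470.5 and 3285 to 4073 CPM (log2 -0.22, edgeR adjusted p = 0.432) and miR-30c-1-3p 44.5 to 56.8 and 28.0 to 39.7 CPM (log2 -0.57, edgeR adjusted p = 0.221), both lower without overlap, opposite to miR-30d-5p. The 5 miR-30 5p arms, which share a seed, summed to 43336 ± 2223 CPM in normoxia and 60037 ± 1129 CPM in hypoxia, higher without overlap under TMM and the authors' factors and overlapping by library size alone. By TMM the gain of miR-30d-5p alone, already called above, was larger than that of the sum. The sum of miR-30a-5p, miR-30c-5p and miR-30e-5p was instead lower, 15314 ± 690 CPM in normoxia and 13426 ± 950 CPM in hypoxia. It did not overlap under TMM but overlapped under the other scalings. Without hypoxia 0.2% replicate 2, 3 of 10 were called in each of the miR-23, miR-27 and miR-24 and the miR-30 lists, all higher.

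Among lineage lists, 1 of 23 androgen receptor-linked miRNAs rose (miR-27a-5p), with 4 higher and 2 lower without overlap and a median of 0.062. In the luminal marker list 0 of 7 passed, 0 were higher and 1 lower without overlap (miR-148a-5p), and the median was 0.062. None of the 7 tested members passed in the miR-200 and miR-141 family, which maintains the epithelial state (0 without overlap, median 0.21), in the mesenchymal or basal list (0 without overlap, median 0.22) or in the neuroendocrine-linked list (1 lower without overlap, median -0.050). let-7 and miR-98, which target RAS and HMGA2, had 0 of 18 passing, 3 lower without overlap and a median of -0.027. No member passed among 7 of miR-29 (median -0.13), 7 of miR-181 (median 0.34), 6 of miR-148 and miR-152 (median 0.037), 4 of miR-183, miR-96 and miR-182 (median 0.16) or 4 p53-regulated miRNAs (median 0.035). Within the miR-148 and miR-152 family, which shares a seed, miR-152-3p was at 365 to 467 CPM in normoxia and 433 to 828 CPM in hypoxia and did not pass (log2 0.72, edgeR adjusted p = 0.144). Leaving out hypoxia 0.2% replicate 2, the calls were 3 higher and 1 lower among the 23 androgen receptor-linked miRNAs, and 1 higher and 1 lower in each of the luminal list, miR-148 and miR-152, and miR-183, miR-96 and miR-182. Without it there were also 2 higher in miR-181, 1 higher in each of the miR-200 and mesenchymal lists, 1 lower in let-7, and 0 in the neuroendocrine, miR-29 and p53 lists.

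Markers of other cells did not pass either: 0 of 4 smooth muscle or stromal members (2 higher without overlap, median 0.39), 0 of 1 blood member (miR-486-5p, log2 0.30) and 0 of 9 neuronal members (3 higher and 1 lower without overlap, median -0.11). Summed levels of the stromal list were 171 to 218 CPM in normoxia and 199.8 to 664 CPM in hypoxia, the last in the library with high miR-143-3p. Entries that resemble other RNA classes, a sign of RNA fragments, had 0 of 7 passing, 3 with a positive value, 3 lower without overlap (miR-4454, miR-4461 and miR-7974) and a median of -0.89. Their summed level was 1415 to 1501 CPM in normoxia and 629 to 1082 CPM in hypoxia. miR-7974 alone was at 817 to 1017 CPM in normoxia and 179.7 to 660.0 CPM in hypoxia, with hypoxia 0.5% replicate 1 lowest. miR-4461 was at 2.23 CPM or below in hypoxia and reached the minimum level for the test only in the normoxia libraries. It had to be lower once it was tested. When hypoxia 0.2% replicate 2 was left out, 2 of these 7 entries were called lower and 1 of the 9 neuronal members higher, and no stromal or blood member was called. The part of RNA quality in the results was not tested.

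Levels were also summed by seed over the tested miRNAs with a sequence matched in RefSeq. Of 50 seed families with at least 2 tested members, 7 summed higher and 7 lower without overlap by TMM. The lower ones include the miR-30 seed without miR-30b-5p and miR-30d-5p, whereas with these arms its sum was higher, as given above. Entries with identical values were each summed, such as miR-548av-5p and miR-548k in a higher family. The same holds for miR-548aj-5p, miR-548g-5p and miR-548x-5p in a lower family. The 5 families given here were chosen from those without overlap after their values were seen, and no test was made on the sums. The seed AGCAGCA of the miR-15 and miR-16 family summed to 52230.4 ± 1332 CPM in normoxia and 42184 ± 4814 CPM in hypoxia (SD, n = 3 and n = 4), mostly as miR-16-5p. The seed AAAGUGC, carried by miR-17-5p, miR-20a-5p, miR-93-5p and 3 relatives, summed to 14160.3 ± 822 CPM in normoxia and 11526 ± 366 CPM in hypoxia. In the other direction, the seed GUGCAAA of miR-19a-3p and miR-19b-3p summed to 1161 ± 147 CPM in normoxia and 1680.2 ± 322 CPM in hypoxia. The seed ACCCGUA of miR-99a-5p and miR-99b-5p summed to 2261 ± 18.4 CPM in normoxia and 3307 ± 935 CPM in hypoxia, and CCCUGAG of miR-125a-5p and miR-125b-5p to 8145 ± 107 CPM in normoxia and 10338 ± 823 CPM in hypoxia. By library size alone only the ACCCGUA family among these 5 stayed without overlap. Sequence composition was also described. Of the miRNAs matched to RefSeq, the median GC content was 54.5% in 41 that were higher without overlap, 52.1% in 38 that were lower (by TMM) and 48.9% over all 424.

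At 0.5% O2 alone, miR-210-5p was the only miRNA called (log2 1.95, edgeR adjusted p = 0.0463, 0.204% of 489), and at 0.2% O2 alone, with 1 control library, the share called was 0%. Without adjustment 74 and 23 miRNAs had a p under 0.05, and DESeq2 called 6 and 4. The effects on the 6 were positive at both levels: log2 0.90 and 1.17 for miR-210-3p, 1.95 and 1.93 for miR-210-5p, 0.81 and 0.76 for miR-30d-5p. For miR-190b they were 1.42 and 1.94, for miR-27a-5p 1.53 and 1.27, and for miR-338-5p 2.88 and 3.51. The difference between levels was called for 0% of miRNAs (edgeR, 13 with an unadjusted p under 0.05, and 0 called by DESeq2), and for miR-210-3p it was 0.28 (SE 0.29). Among the 6, the SE of the difference was largest for miR-338-5p (1.32), so the levels are compared with least precision there. Over all 489 miRNAs the effects had the same sign at both levels in 283, with Pearson's r of 0.37 and Spearman's rho of 0.26 across miRNAs, which are not independent; the levels share no library. The count at 0.5% was 23 without hypoxia 0.2% replicate 1, 19 without replicate 2 of that level, 5 without hypoxia 0.5% replicate 2 and 0 without hypoxia 0.5% replicate 1 or either 0.5% control.

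**Figure D3:**
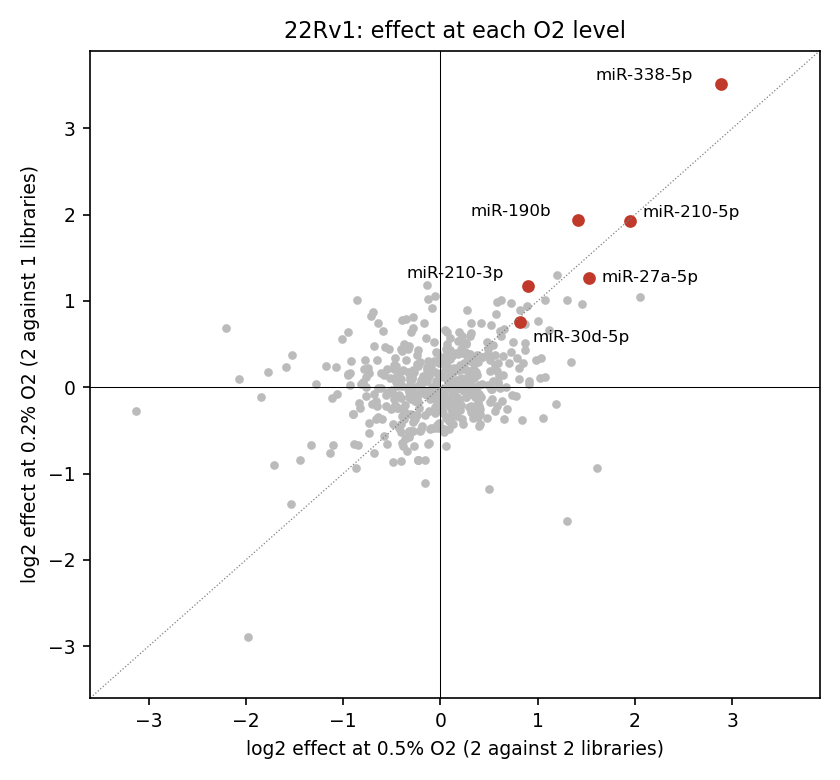
Log2 effect at 0.2% O2 (2 hypoxia libraries against 1 control) over the log2 effect at 0.5% O2 (2 against 2) for the 489 miRNAs tested, with the line of equal effects dotted. The 6 called miRNAs (red) lie above 0 on both axes, for example miR-210-5p at 1.95 and 1.93, while most other miRNAs gather about 0.

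Against milder hypoxia in the same line, 2 and 1% O2 with their own controls, no difference was called (0% of 511, edgeR, 25 with an unadjusted p under 0.05, and 0 called by DESeq2). miR-210-3p had log2 1.00 at 0.5 and 0.2% and 1.06 at 2 and 1% O2 in the joint fit, a difference of -0.061 (SE 0.14). miR-210-5p had 1.94 and 1.57, and miR-190b 1.61 and 1.18. miR-27a-5p had 1.42 and 0.75 (difference 0.67, SE 0.32, edgeR adjusted p = 0.857). For all 6 both effects were positive. Without hypoxia 0.2% replicate 2, 15 differences were called, 13 of them positive.

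Against 0% O2 in the same line, 3 of 507 differences (0.592%) were called, and in each the value at 0% O2 was the higher one. miR-148a-5p had a log2 effect of -0.59 at 0.5 and 0.2% and 0.90 at 0% O2, opposite in sign (difference -1.49, SE 0.21, edgeR adjusted p = 0.00995). miR-22-5p had -0.026 and 1.49 (difference -1.51, SE 0.28, edgeR adjusted p = 0.0336). miR-30b-3p had 0.75 and 2.21 (difference -1.46, SE 0.26, edgeR adjusted p = 0.0313). In contrast, both effects were nearly equal for miR-210-3p (1.01 and 1.10, difference -0.094, SE 0.18) and miR-30d-5p (0.80 and 0.80, SE of the difference 0.19). miR-148a-5p was called without any 1 of the 7 libraries, whereas the count fell to 1 without hypoxia 0.5% replicate 2 or either 0.5% control, and to 2 without hypoxia 0.5% replicate 1. The libraries at 0% O2 and their controls were not left out in turn.

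Against PC-3 at the same 2 levels, no difference between the lines was called (0% of 547, edgeR, 54 with an unadjusted p under 0.05, and 1 called by DESeq2). In the joint fit miR-210-3p rose by 0.95 in 22Rv1 and 0.91 in PC-3 on the log2 scale (difference 0.038, SE 0.19). The values of miR-210-5p were 1.87 and 1.02 (difference 0.85, SE 0.27, edgeR adjusted p = 0.289), those of miR-27a-5p 1.36 and 0.59 (edgeR adjusted p = 0.414) and those of miR-30d-5p 0.73 and 0.50 (edgeR adjusted p = 0.648). miR-190b was nearly absent from PC-3, with fitted levels of 2.51 CPM in normoxia and 2.27 CPM in hypoxia against 24.7 and 71.5 CPM in 22Rv1. miR-338-5p was at 0.456 and 0.241 CPM in PC-3, too low for a fold. Without hypoxia 0.2% replicate 2, 24 differences were called (18 with the higher effect in 22Rv1), among them miR-210-5p (difference 0.95, edgeR adjusted p = 0.0287), miR-27a-5p (0.95, 0.0184) and miR-99a-5p (0.77, 0.0365).

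**Figure D4:**
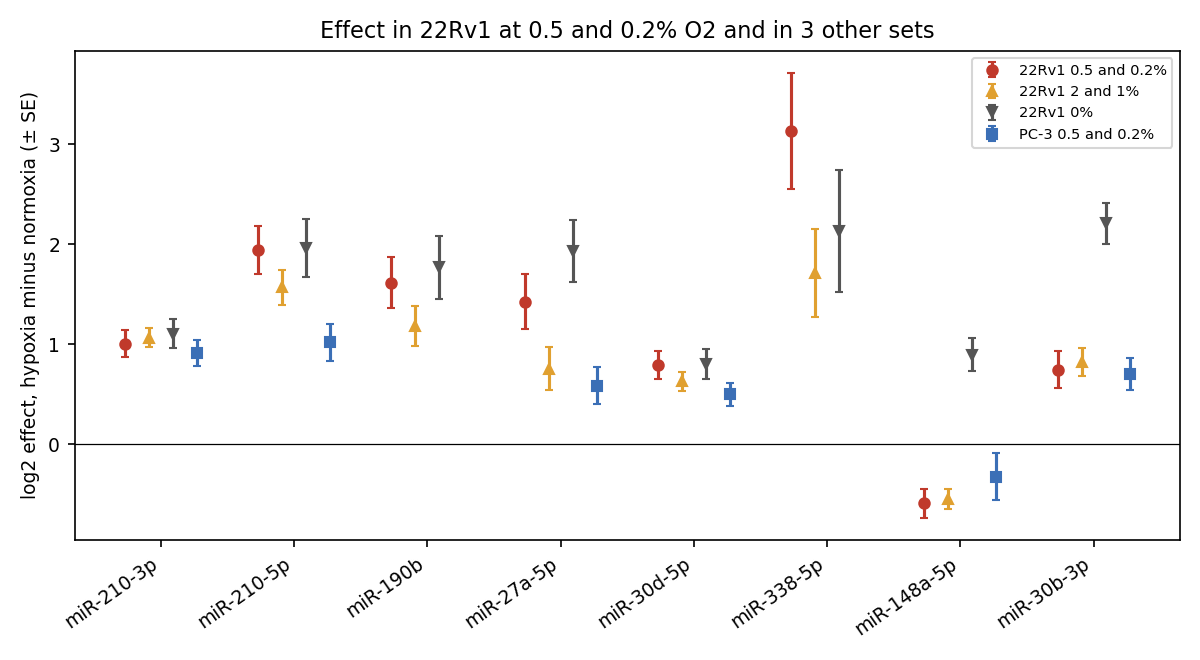
Log2 effect of hypoxia (± SE) on the 6 called miRNAs, miR-148a-5p and miR-30b-3p in 22Rv1 at 0.5 and 0.2% O2 (red), 22Rv1 at 2 and 1% O2 (orange), 22Rv1 at 0% O2 (grey) and PC-3 at 0.5 and 0.2% O2 (blue); a point is left out where both levels were under 5 CPM (miR-190b and miR-338-5p in PC-3). miR-210-3p is near 1 in all sets, while miR-148a-5p is below 0 except at 0% O2.

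The ratio of the 5p to the 3p arm of a hairpin, which needs no scaling between libraries, changed for 1 of 119 hairpins (0.84%, limma on log2 ratios). For miR-338 the log2 ratio was -3.29 and -3.35 in the 0.5% controls and -3.36 in the 0.2% control. In hypoxia it was -0.11 and -0.88 at 0.5% and 0.91 and -0.65 at 0.2% O2. The 5p arm thus went from a small minority to a level similar to that of the 3p arm, a change of 3.09 (SE 0.41, limma adjusted p = 0.00815), and the groups did not overlap. The same counts gave the call of miR-338-5p above, so the ratio is not independent of it. The 5p arm passed the minimum of 5 CPM only through the hypoxia libraries, where it was high. The count was 0 with a minimum of 20 CPM, which leaves miR-338 out, and 0 with no filter (261 hairpins, limma adjusted p = 0.119 for miR-338). For miR-27a the ratio differed by 1.11 (SE 0.27, limma adjusted p = 0.203), without overlap between groups. For miR-210 it differed by 0.90 (SE 0.33, limma adjusted p = 0.449), with overlap. Neither passed, and 11 hairpins had an unadjusted p under 0.05. Over the 119 hairpins the median log2 effect was 0.054 for the more abundant arm and -0.055 for the less abundant one, and the more abundant arm had the more positive effect in 67. The count was 0 without hypoxia 0.5% replicate 1 or normoxia 0.2% replicate 1 and 3 without hypoxia 0.2% replicate 2.

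**Figure D5:**
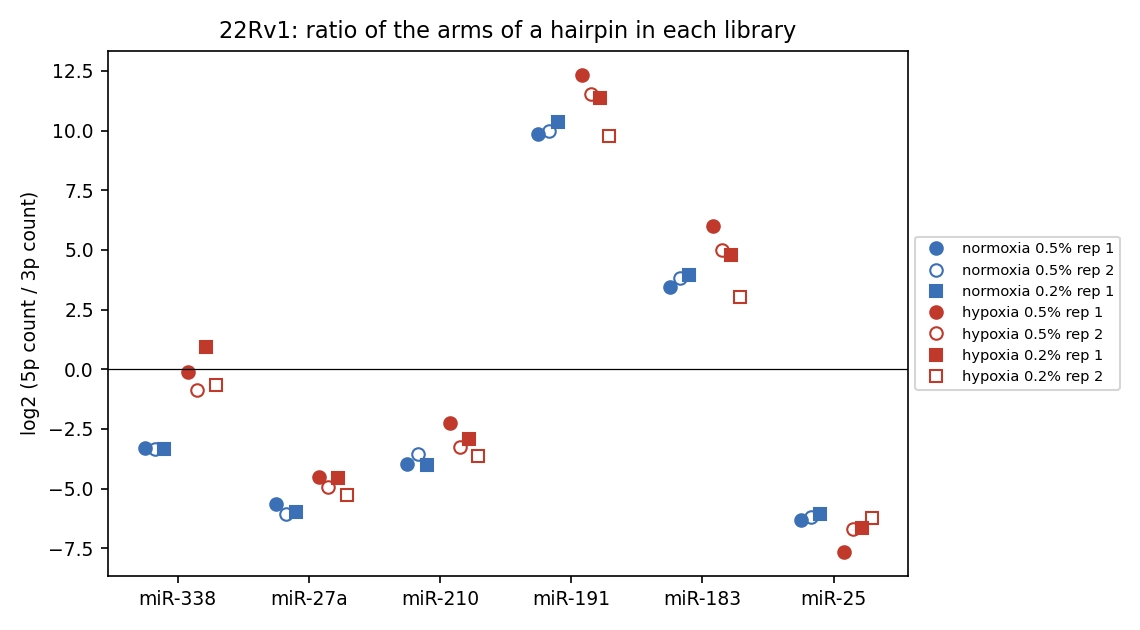
Log2 ratio of 5p to 3p counts of 6 hairpins in each of the 7 libraries, with a line at equal counts. For miR-338 the controls lie between -3.36 and -3.29 and the hypoxia libraries between -0.88 and 0.91; for the other 5 hairpins the change did not pass the test.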

How the data were processed

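Small RNA was sequenced from total RNA (miRNeasy extraction, TruSeq Small RNA libraries, per the labels' protocols). The authors deposited a table of raw counts (1006 miRNA entries, 47 libraries) and a second table of CPM, which was checked to be these counts times 1 constant per library. Those constants served as the authors' factors. The submitters' processing notes name FastQC and hg19, while an aligner or counter is not given in the sources used here. These tables hold no coordinates. The positions printed are GRCh38 and were matched by name (868 of 1006 entries, 424 of 489 tested) to RefSeq.

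From the counts, edgeR 4.0.16 (R 4.3.3) fitted the 7 libraries with O2 level as a block and robust quasi-likelihood dispersion, leaving 4 residual degrees of freedom. miRNAs needed at least 5 CPM in at least 3 fitted libraries. Libraries were scaled by TMM, and tests were two-sided. Single levels and their difference came from a fit with 1 mean per group, in which the lone 0.2% control is taken to vary as much as the others. Differences from PC-3, from 2 and 1% and from 0% O2 came from joint fits. Arm ratios, log2 of counts plus 0.5, were tested with limma 3.58.1. An exact permutation test of 4 against 3 libraries cannot go below p = 0.0571, so none is given. DESeq2 1.42.0 was an alternative. The scripts were tested on simulated data with a smaller spread between libraries than these data and no library that stood apart. That test therefore does not show how many changes were missed here. Replicates differed by more than counting error (chi-square per degree of freedom of 27.1 to 205), and the common biological coefficient of variation was 20.3%.

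Named miRNAs were up to 12 called per direction of 20 CPM or more with 1 sign at both levels (the next by p up to 5 where fewer were called), the other arm of each, the 5 most abundant, and up to 4 per list by smallest p (those with an unadjusted p under 0.05). miR-338-5p (under 20 CPM), miR-874-3p, miR-191-5p as called without 1 library, the seed families and the hairpins drawn beside miR-338 were chosen after their values were seen. The lists name hairpins, so both arms count as members. The members and the 22 lists were chosen with earlier results of these data known. Alternatives were other scalings, filters and tools, fits with the replicate number, all 22Rv1 libraries, no level block and the omission of each of the 7 libraries. The PC-3 libraries and those of 22Rv1 at other O2 levels were not left out in turn.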

Additional observations from a re-analysis of the deposited data

Results flagged for a closer look

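Among the 33 named miRNAs, the 4 hypoxia libraries were examined for a library far from the others (the gap to the nearest library over the whole range, against Dixon's critical value for 4). For miR-4454 the ratio was 0.856, with hypoxia 0.2% replicate 2 lowest at 71.8 CPM and the next library at 124 CPM. For miR-23a-3p it was 0.869, with the same library lowest at 807 CPM and the next at 962 CPM. Chance gives about 1 such case in 20 groups.

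In edgeR's test of the difference, 3 miRNAs had an effect at 0.5 and 0.2% O2 that differed from their effect at 0% O2 in the same line on the log2 scale: miR-148a-5p by -1.49, miR-22-5p by -1.51 and miR-30b-3p by -1.46. For miR-148a-5p the fitted level at 0% O2 went from 953 to 1773 CPM, against 856 to 573 CPM at 0.5 and 0.2% O2. For miR-22-5p the fitted levels were 25.2 to 70.4 CPM at 0% and 33.0 to 34.3 CPM at 0.5 and 0.2% O2. For miR-30b-3p they were 33.6 to 156 CPM and 40.7 to 69.7 CPM.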

How the results depend on the processing

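The count of calls at 0.5 and 0.2% O2 (6) was 3 with DESeq2 size factors, 1 with library size alone, 11 with no filter on low values, 19 in DESeq2 (12 higher, 7 lower) and 25 in a fit of all 23 22Rv1 libraries (14 higher, 11 lower), and 0 to 51 without 1 library. Without both hypoxia 0.5% replicate 1 and hypoxia 0.2% replicate 2, an omission chosen after seeing the data, it was 83. At 0.5% O2 (1) it was 0 with DESeq2 size factors, library size alone or a minimum of 20 CPM, 4 with no filter, 6 in DESeq2, 16 with all 23 libraries and 0 to 23 without 1 library. At 0.2% O2 (0) it was 2 with no filter, 4 in DESeq2, 6 with all 23 libraries and 0 to 2 without 1 library. Neither that count nor the level difference (0, and 0 to 1) could be fitted without normoxia 0.2% replicate 1. The difference from PC-3 (0) was 1 in DESeq2 and 0 to 24 without 1 library, that from 2 and 1% O2 (0) 0 to 15, and that from 0% O2 (3) was 0 with library size alone and 1 to 3 without 1 library. In these differences only the 7 libraries at 0.5 and 0.2% O2 in 22Rv1 were left out in turn. How far they hang on single libraries of PC-3 or of the other O2 levels was not tested. The arm ratio count (1) was 0 with a minimum of 20 CPM or no filter and 0 to 3 without 1 library. The cause was not tested where no value shows it.

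With the replicate number as a replicate block the counts were 20 (11 higher, 9 lower), 69 as pairs, 2 at 0.5% O2, 1 against 0% O2 and 3 for arm ratios. The labels do not say whether the numbers pair the samples. Deviations of same-numbered libraries correlated across miRNAs at 0.096, 0.31 and -0.27. Each group gives only 1 such deviation, so these values cannot decide the question. Of the fitted effects of single named miRNAs, none changed sign under the alternatives run, whereas 7 of 15 list medians above 0 and the median of all miRNAs fell below 0 by library size alone. miR-210-5p passed in 11 of 11 alternatives and 5 of 7 omissions, miR-210-3p and miR-190b each in 10 of 11 and 3 of 7, miR-30d-5p in 9 of 11 and 1 of 7, miR-27a-5p in 8 of 11 and 1 of 7, and miR-338-5p in 7 of 10 and 2 of 7.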
